A study of Homo sapiens with 6 samples.

Results

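The levels of SYT7 and GAL mRNA were examined in MDA-MB-231 cells given DMSO or BRL-50481, an inhibitor of the cAMP-degrading enzyme PDE7A. Both genes were chosen because their mRNA was among the most strongly lowered of the well-measured genes in this same comparison, so their differences are given as a description and without a test. They are 2 of the 15651 genes in the deposited table, and both were among the 15246 tested, which reached 4 normalized counts in 3 or more libraries. SYT7 encodes synaptotagmin 7, a membrane-anchored protein of vesicles and lysosomes whose paired C2 domains bind calcium and phospholipid, and which acts as a slow, high-affinity calcium sensor in the release of dense-core granules and in the fusion of lysosomes with the plasma membrane. GAL encodes the precursor of galanin, a neuropeptide of neurons and endocrine cells that is stored in dense-core granules, cut from its precursor at basic residues and recognised by the G protein-coupled receptors GALR1, GALR2 and GALR3. Galanin is known as a peptide whose gene responds to cAMP signalling, and PDE7A degrades cAMP. In separate experiments, with cAMP measured at another dose, the paper reports higher cAMP and more phosphorylated CREB in this cell line after BRL-50481. A link of either to the level of GAL was not tested here.

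MDA-MB-231 is an established human cell line of triple-negative breast cancer. RNA was sequenced from 3 libraries of cells given DMSO, the solvent, and from 3 libraries of cells given BRL-50481, and the groups differed in no other agent. Dose and time are given as 50 μM and 72 h in the paper and in the protocol text of the labels, but as 5 μM and 48 h in their treatment tag. The protocol in the labels describes selection of mRNA with oligo-dT beads and strand-specific libraries, and the design text of the series describes depletion of ribosomal RNA. The deposited values are read counts per gene divided by a size factor of each library and are called normalized counts below. The libraries held 30750573 to 33446984 reads on genes, and 1 read was worth between 0.969 and 1.02 normalized counts. DMSO replicate 1 stood apart from the other DMSO libraries, since its counts gave 22.1 and 13.7 as chi-square over degrees of freedom against them, where the other pairs within a group gave 2.63 to 3.99. The labels call the libraries replicates without naming separate cultures, and the design text calls them biological replicates, so that p-values measure the spread between these libraries.

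The markers fixed for the cell line were all expressed. VIM, CD44, EGFR, CAV1, ANXA1 and ZEB1, known in mesenchymal and basal-like breast cancer cells, summed to between 122928 and 126967 normalized counts in DMSO and between 180620 and 181967 in BRL-50481, and 5 of the 6 rose at a limma adjusted p-value under 0.05, as 28.9% of all genes tested did. Of 7 neuroendocrine markers, SYP and SYN1 had values, together 13.3 to 18.9 normalized counts in DMSO and 17.1 to 26.2 in BRL-50481, and the other 5, CHGA among them, were not analysed here. Of 7 luminal markers, 6 had values, which summed to 2603 to 2800 and 2958 to 3080 normalized counts, with PGR below the filter and ESR1 not analysed here. Within this sum, the means of ERBB2 (1677 to 1914), GATA3 (189 to 278) and CDH1 (38.2 to 99.8) rose from DMSO to BRL-50481. Those of EPCAM (764 to 682) and FOXA1 (43.6 to 21.0) fell. Of 9 stromal, endothelial and immune markers, 5 had values, which summed to 946 to 1010 and 1139 to 1294, with DCN, VWF, PTPRC and CD3E not analysed here. The part of these markers in the levels of SYT7 and GAL was not tested.

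SYT7 lies on the minus strand of chromosome 11 of hg38, from 61513714 to 61581148, and GAL lies 7.10 Mb away on the plus strand of the same chromosome, from 68683779 to 68691175. SYT7 spans 67435 bases, and its canonical transcript in GENCODE release 44 has 13 exons and 7230 bases. GAL spans 7397 bases, and its canonical transcript has 6 exons, 5 of them coding, and 749 bases. Exons of another annotated gene on the same strand covered 0.649% of the exon bases of SYT7 and none of those of GAL. Reads were counted by the authors on the UCSC annotation, and these positions are those of GENCODE.

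SYT7 mRNA after BRL-50481 was at 13.3% of its mean level after DMSO. The DMSO libraries held 216, 226 and 188 normalized counts of SYT7 in replicates 1, 2 and 3. The BRL-50481 libraries held 27.2, 31.2 and 25.2 in the same order. Every BRL-50481 library lay far below every DMSO library, and the lowest DMSO value was 6.02 times the highest BRL-50481 value. The means were 210 ± 19.9 and 27.9 ± 3.07 (SD, n = 3 each), a 7.54-fold lower level with BRL-50481. The log2 fold change on the scale of log2(normalized count + 1) was −2.87 (standard error 0.161). These values rest on 184 to 231 reads per DMSO library and on 26 to 31 reads per BRL-50481 library. The exact 95% Poisson intervals, which cover counting error only, reached down to 162 normalized counts in DMSO and up to 44.3 in BRL-50481. They describe the counts and are no test of the difference on which SYT7 was chosen. Counting error alone would give a coefficient of variation of 18.9% between the BRL-50481 libraries, and the observed one was 11.02%.

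GAL mRNA was also several-fold lower in each BRL-50481 library. In DMSO, replicates 1, 2 and 3 held 298, 360 and 385 normalized counts. In BRL-50481 they held 57.4, 41.3 and 62.0. The groups did not overlap, although the spread within each group was wider than for SYT7, with DMSO replicate 1 the lowest of its group and BRL-50481 replicate 2 the lowest of the other. The means were 348 ± 45.1 and 53.6 ± 10.9 (SD, n = 3 each), a 6.49-fold lower level, and the log2 fold change was −2.69 (standard error 0.164). The lowest DMSO value was 4.80 times the highest BRL-50481 value. The libraries held 300 to 377 reads of GAL in DMSO and 41 to 64 in BRL-50481. In these bulk samples, fewer cells that express a gene and less of its RNA per cell cannot be told apart.

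**Figure D1:**
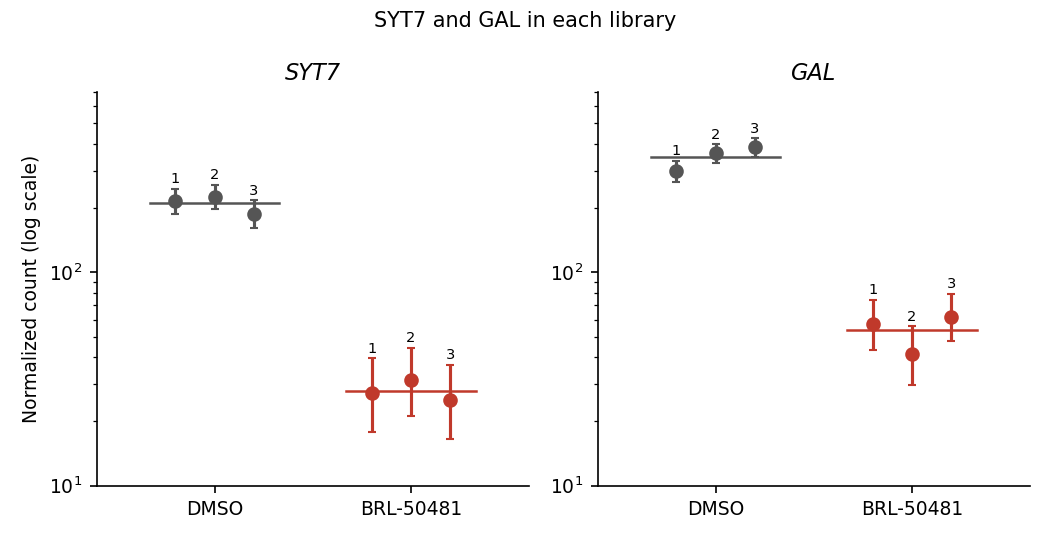
Normalized counts (log scale) of SYT7 (left) and GAL (right) in each library, with DMSO in grey and BRL-50481 in red. Points are libraries numbered by replicate, bars are exact 95% Poisson intervals for counting error and lines are group means. SYT7 sits between 188 and 226 in DMSO and between 25.2 and 31.2 in BRL-50481, and GAL between 298 and 385 and between 41.3 and 62.0.

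The falls of both genes changed little when single libraries were left out. Without DMSO replicate 1, the library that stood apart, the log2 fold change was −2.85 for SYT7 and −2.80 for GAL. Over the 6 fits that each left out a library, it ranged from −2.95 to −2.80 for SYT7 and from −2.80 to −2.51 for GAL. The 2 genes fell by similar amounts, which follows in part from the choice of both for large falls. The ratio of GAL to SYT7 normalized counts was 1.38, 1.59 and 2.05 in the DMSO libraries and 2.11, 1.32 and 2.46 in the BRL-50481 libraries, so that the ranges of this ratio overlapped.

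The 11455 genes whose mean was 100 normalized counts or more are called well measured here. SYT7 and GAL reached that mean through their DMSO libraries, since their BRL-50481 means were 27.9 and 53.6. Ordered by the size of the fall, SYT7 had rank 1 and GAL rank 3 among these genes. FOSB, an immediate-early subunit of the AP-1 transcription factor, lay between them with a log2 fold change of −2.82. Directly after GAL came HSPA1B (−2.69) and HSPA1A (−2.68), near-identical heat shock genes that reads may not tell apart. Then came ACHE (−2.65), which encodes acetylcholinesterase. GAL and the heat shock pair differed by less than their errors, so the order within that group is not firm. Over the alternatives tried, SYT7 had rank 1 or 2, and GAL had a rank from 2 to 6. Among all genes tested, where scarcely expressed genes also count, SYT7 ranked 8 and GAL ranked 16. Only 19 of the 11455 well-measured genes had a log2 fold change below −2, and their median was −0.027. At an adjusted p-value under 0.05 in limma, 29.8% of all genes tested were lower and 28.9% were higher with BRL-50481. All BRL-50481 libraries were below all DMSO libraries, as for SYT7 and GAL, in 32.3% of the genes tested, and all were above in 31.9%. Since both genes were chosen on this contrast, their ranks and these shares are given as a description and nothing is read from them.

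**Figure D2:**
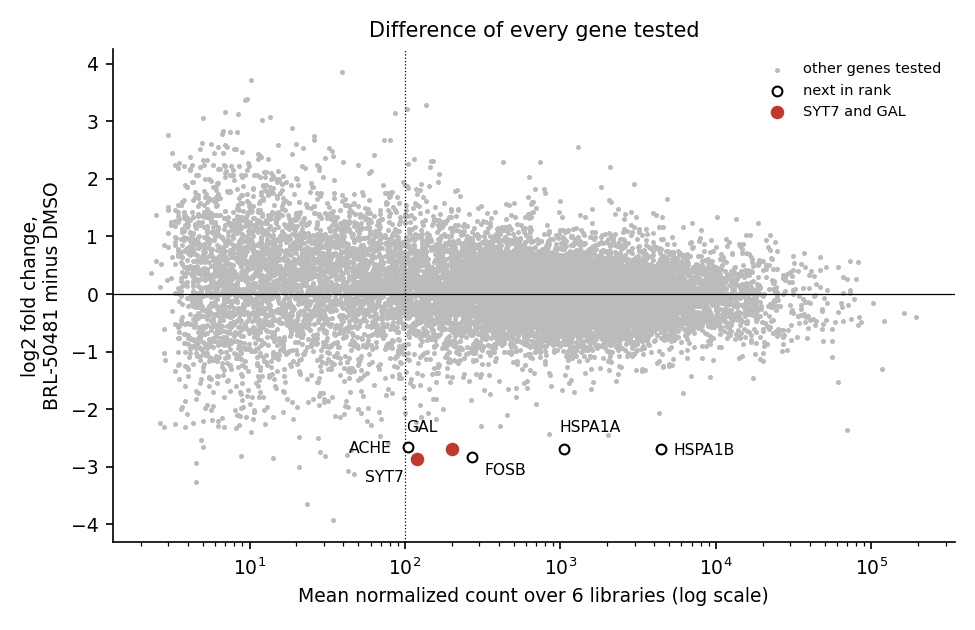
Log2 fold change of BRL-50481 over DMSO against the mean normalized count over 6 libraries (log scale) for each of the 15246 genes tested. SYT7 (−2.87) and GAL (−2.69) are in red, the genes next to them in rank are open circles, and the dotted line marks a mean of 100. Few grey points to the right of that line lie below −2.

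The genes whose pattern over the 6 libraries was most like that of either gene were largely the same. Likeness was measured as the root mean square difference of log2 values, each gene set to its own DMSO mean, over the other 11454 well-measured genes. For SYT7, the nearest was FOSB (0.168, Pearson's r 0.993), followed by HSPA1B (0.222), HSPA1A (0.223), ACHE (0.242) and SERPINB2 (0.336), the gene of plasminogen activator inhibitor type 2. For GAL, the nearest was HSPA1B (0.134, Pearson's r 0.995), followed by HSPA1A (0.180), ACHE (0.181), FOSB (0.216) and SERPINB2 (0.273). SYT7 and GAL differed from each other by 0.337, with GAL in place 6 for SYT7 and SYT7 in place 8 for GAL. These values describe 6 libraries in 2 groups, so they mostly express that the genes fell by similar amounts. ACHE went from 182 ± 23.2 to 28.2 ± 3.63 normalized counts and FOSB from 476 ± 31.0 to 66.5 ± 5.70 (SD, n = 3 each).

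Because a long transcript collects more reads than a short one, levels of different genes were compared per kb of the canonical transcript. On this scale GAL was the more abundant of the pair, with 464 normalized counts per kb in DMSO and 71.5 in BRL-50481, while SYT7 had 29.1 and 3.85. GAL thus lay at percentile 66.7 of the 14763 genes tested that had a length in DMSO and at percentile 29.97 in BRL-50481. SYT7 lay at percentile 21.3 and then at 5.95.

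Beside SYT7, whose fall is given without a test, no synaptotagmin was called lower in limma and 2 were called higher. Of these, SYT2 passed the filter only through the BRL-50481 libraries, where it was high. Over all genes tested 29.8% were lower and 28.9% were higher, and the synaptotagmins are too few to set against these shares. Synaptotagmins are a family of vesicle proteins of which some bind calcium, and 8 of the 17 had a value in the table. Per kb of transcript, SYT12 was the most abundant in DMSO (45.4 ± 3.15), ahead of SYT1 (30.2 ± 2.66), SYT7 (29.1 ± 2.75) and SYT17 (28.8 ± 4.11; SD, n = 3 each). SYT1, SYT7 and SYT17 did not differ beyond their spread in DMSO. In BRL-50481, SYT1 led (51.2 ± 1.77), and SYT7 (3.85 ± 0.425) stood next to SYT11 (4.47 ± 1.03), from which it did not differ beyond the spread. SYT7 made up 20.9%, 22.7% and 18.6% of the summed synaptotagmin level per kb in the DMSO libraries. Its share was 2.78%, 3.05% and 2.76% in the BRL-50481 libraries. The sum of the other synaptotagmins was 106 to 114 per kb in DMSO and 123 to 137 in BRL-50481. These ranges did not overlap, as in 31.9% of all genes tested in that direction. Within the sum, SYT1 went from 30.2 to 51.2 per kb and SYT17 from 28.8 to 32.6. SYT12 went from 45.4 to 38.6 and SYT11 from 5.58 to 4.47, and the remaining genes had at most 2.17.

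**Figure D3:**
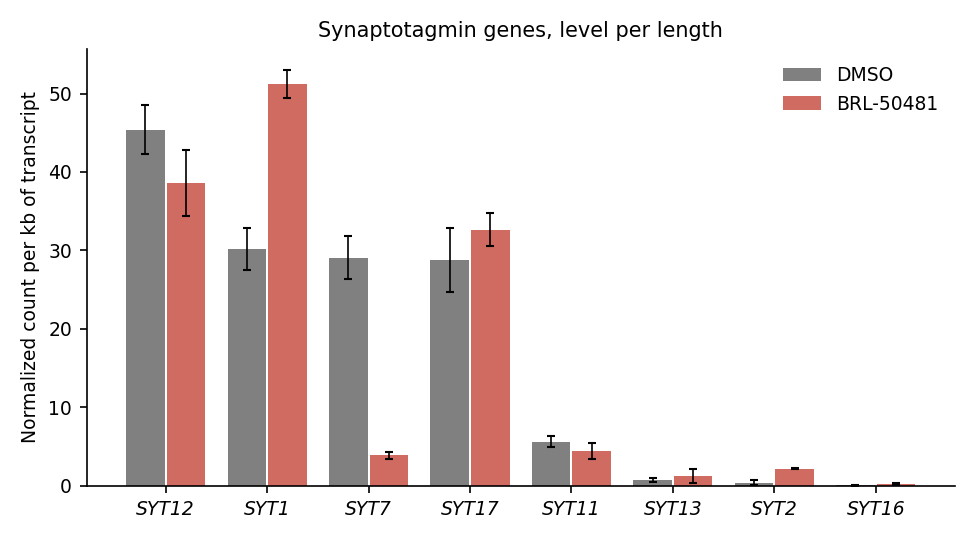
Level per length (normalized count per kb of canonical transcript) of the 8 synaptotagmin genes with a value, in DMSO (grey) and BRL-50481 (red). Bars are means of 3 libraries and error bars are SD. SYT7 drops from 29.1 to 3.85, whereas SYT1 goes from 30.2 to 51.2.

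SYT1, the fast calcium sensor of synaptic vesicles, rose from 142 ± 12.5 to 241 ± 8.34 normalized counts, a log2 fold change of 0.76 (standard error 0.112, limma adjusted p = 6.77e-05). SYT2, its close relative, rose from 3.01 ± 2.06 to 16.6 ± 0.514 normalized counts (limma adjusted p = 0.00151), a change at few reads. SYT11 (log2 fold change −0.33), SYT12 (−0.24), SYT13 (0.37) and SYT17 (0.19) did not pass the threshold, and SYT13 had under 7 normalized counts in either group on average. SYT16 was below the filter. Adding the synaptotagmin-like effectors of RAB27 and other proteins with tandem C2 domains gave 27 genes beside SYT7, of which 15 were tested. Of these, 6 were higher (40%), SYT2 among them, and 1 was lower (6.67%), beside 28.9% and 29.8% over all genes tested. The log2 fold changes of the 15 had a median of 0.19. Over all genes tested the median was 0.015. SYTL1 (1.17, standard error 0.154) and SYTL3 (0.85, standard error 0.148), which tether vesicles through RAB27, rose together with SYT1 as the largest changes at a mean of at least 50, whereas SYTL4 (−0.16) did not pass. It was called lower with quantile normalization (−0.21, limma adjusted p = 0.0417) and after the correction for length and GC content (−0.24, limma adjusted p = 0.00944). The extended synaptotagmins ESYT2 (0.19) and ESYT1 (0.23), which hold the endoplasmic reticulum to the plasma membrane and were the most abundant, rose slightly, and ESYT2 did not pass after a correction for length and GC content (0.052). DOC2A, a high-affinity calcium sensor of spontaneous release named here as the single member that fell, had a log2 fold change of −0.60 (standard error 0.146, limma adjusted p = 0.00304). SYT12 was called lower with quantile normalization only (−0.33, limma adjusted p = 0.0343). With that normalization 4 of the 15 were lower and 6 were higher, and with a correction for transcript length and GC content 4 were lower and 5 were higher.

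The SNARE proteins, which fuse vesicles with their target membrane, and the factors that load and recycle them moved in both directions. Of 35 such genes, 29 were tested, 9 were lower and 7 were higher, shares of 31.0% and 24.1% beside 29.8% and 28.9% over all genes tested. The median log2 fold change was 0.067. Among the most abundant, UNC13D, a priming factor of lytic granules and lysosome-related organelles, rose from 3398 ± 121 to 6246 ± 355 (0.88, standard error 0.0543, limma adjusted p = 3.86e-08). VAMP3, a vesicle SNARE of recycling endosomes, had 4500 ± 123 and 4574 ± 45.4 (0.024, limma adjusted p = 0.686). The largest changes at a mean of at least 50 were those of STX11 (−1.09), a syntaxin of lytic granules, UNC13A (1.08), a priming factor of synaptic vesicles, and VAMP4 (0.90), a SNARE of the trans-Golgi network. Synaptotagmin 7 is known to act in lysosome fusion with VAMP7, STX4 and SNAP23, which are named for that role and outside the naming rule. VAMP7 (log2 fold change 0.085, limma adjusted p = 0.205) and STX4 (0.067, limma adjusted p = 0.37) did not pass the threshold, and SNAP23 rose slightly (0.25, standard error 0.0533, limma adjusted p = 0.00117). VAMP7 passed as higher without DMSO replicate 1 (0.11, limma adjusted p = 0.0353) and with quantile normalization (0.14, limma adjusted p = 0.0388), and STX4 did after the correction for length and GC content (0.13, limma adjusted p = 0.0291). Their values lay between 1135 and 2846 normalized counts in the group means.

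Of 20 secretory Rab GTPases, which mark vesicles on their way to the surface, and subunits of the exocyst, which tethers them there, 18 were tested, 3 were lower and 6 were higher. These are shares of 16.7% and 33.3% beside 29.8% and 28.9% over all genes, of which the share of higher genes is near that of all genes. The median log2 fold change was 0.10. RAB3A, the Rab of synaptic vesicles and neuroendocrine granules, fell from 198 ± 14.7 to 90.5 ± 11.4 normalized counts (log2 fold change −1.13, standard error 0.134, limma adjusted p = 1.08e-05). RAB27B, which directs dense-core granules and exosomes to the membrane, rose from 872 ± 101 to 1290 ± 73.2 (0.57, standard error 0.0831, limma adjusted p = 6.28e-05). EXOC6 (0.44) and EXOC5 (0.27) rose, and the abundant RAB10 (0.0057) and EXOC7 (0.021) did not pass the threshold. EXOC5 did not pass after the correction for length and GC content, where its log2 fold change was 0.039. The number of lower genes in this group depended on the processing. It was 1 with quantile normalization, with median centring and without DMSO replicate 3, BRL-50481 replicate 1 or BRL-50481 replicate 2, and it was 6 after the correction for length and GC content.

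Genes of the granules that store galanin, and of the enzymes that cut and modify prohormones, moved in both directions. Of 22 such genes, 13 were tested, of which 2 were lower (15.4%) and 5 were higher (38.5%), beside 29.8% and 28.9% over all genes. The median log2 fold change was 0.20. SCG2, a granin of dense-core granules, rose from 45.6 ± 8.29 to 126 ± 6.39 normalized counts (log2 fold change 1.46, standard error 0.172, limma adjusted p = 1.01e-05). CPE, the carboxypeptidase that trims prohormones after cleavage, rose from 598 ± 46.1 to 1053 ± 45.5 (0.82, standard error 0.0750, limma adjusted p = 1.1e-06). PAM, which amidates many neuropeptides (0.53), and FURIN, a convertase of the Golgi (0.33), were the most abundant of the enzymes and rose as well. CYB561, the granule cytochrome that supplies electrons to PAM, fell (−0.51, standard error 0.0512, limma adjusted p = 2.38e-06). The prohormone convertases PCSK1 and PCSK2, and the granins CHGA and CHGB, were not analysed here. With quantile normalization 4 of the 13 were lower and 5 were higher.

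The galanin receptors GALR1, GALR2 and GALR3 were not analysed here, and neither was GALP, the galanin-like peptide. The 2 genes with a value among 7 receptors and related peptides both rose, too few to set against the 28.9% of all genes tested that were higher. KISS1, the precursor of kisspeptin, went from 208 ± 37.8 to 290 ± 12.9 normalized counts (log2 fold change 0.49, standard error 0.130, limma adjusted p = 0.00532). SPX, the precursor of spexin, which is a ligand of galanin receptors, went from 48.0 ± 8.80 to 84.7 ± 17.0 (0.80, standard error 0.205, limma adjusted p = 0.00431). Both moved opposite to GAL.

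Other genes of secreted peptides were called about as often as all genes. Of 38 neuropeptide and peptide hormone genes, 15 were tested, 4 were lower and 4 were higher, a share of 26.7% each way beside 29.8% and 28.9% over all genes. The median log2 fold change was −0.14. Together with GAL, KISS1 and SPX, 18 peptide genes could be ordered by level per kb. GAL had rank 4 in DMSO (464 ± 60.2 per kb; SD, n = 3), between EDN1 (523 ± 5.06) and KISS1 (292 ± 52.9), with EDN1 within its spread. In BRL-50481 it had rank 9 (71.5 ± 14.5), between UCN2 (113 ± 14.6) and UCN (59.8 ± 19.6), with UCN within its spread. STC1, a glycoprotein hormone and the most abundant peptide gene per kb in both groups, rose from 5325 ± 140 to 10429 ± 210 normalized counts (log2 fold change 0.97, standard error 0.0452, limma adjusted p = 3.85e-09). ADM, the vasodilator adrenomedullin, fell from 1903 ± 169 to 1081 ± 46.4 (−0.81, standard error 0.0715, limma adjusted p = 7.74e-07), and ADM2 (0.0093) did not pass. NMB (1.08) and NMU (0.83), the bombesin-related neuromedin B and neuromedin U, rose. NPPC, the precursor of C-type natriuretic peptide, is named after its values were seen. It had 8, 9 and 9 reads in the DMSO libraries and 0, 1 and 0 in the BRL-50481 libraries. NPPC is among the 4 genes called lower, and it passed the filter only through the DMSO libraries, where it was high.

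Most genes of a list known to respond to cAMP through CREB were lower. Of 20 such genes, 19 were tested, 12 were lower and 4 were higher, shares of 63.2% and 21.1% beside 29.8% and 28.9% over all genes tested. The median log2 fold change was −0.37. Over the alternatives, 10 to 14 were lower and 3 to 4 were higher. SIK1 and NR4A3, outside the naming rule, were called lower in 8 and 10 of 17 alternatives. FOSB, which earlier results of these data already showed among the largest falls, had the largest change of the list (−2.82, standard error 0.116, limma adjusted p = 1.64e-09). FOS, its immediate-early relative, fell from 345 ± 16.7 to 127 ± 13.5 normalized counts (−1.44, standard error 0.112, limma adjusted p = 2.57e-07). DUSP1, a phosphatase of MAP kinases and the most abundant member, fell from 6461 ± 469 to 2687 ± 95.9 (−1.26, standard error 0.0590, limma adjusted p = 3.85e-09). AREG, an EGF receptor ligand, rose slightly (0.19, standard error 0.0602, limma adjusted p = 0.0156) and lost the call without BRL-50481 replicate 1 (0.16, limma adjusted p = 0.0834) or BRL-50481 replicate 3 (0.19, limma adjusted p = 0.0548). CITED2, a transcriptional co-regulator, did not pass (−0.012, limma adjusted p = 0.869). The other genes called higher are outside the naming rule. They were PDE4B (1.22, limma adjusted p = 0.000482), PDE4D (0.88, limma adjusted p = 2.93e-07) and EGR1 (0.29, limma adjusted p = 0.000124). The fall of SYT7 was as large as that of FOSB within their errors. SYT7 and GAL were chosen for large falls, and that these exceeded the falls of the other 18 genes tested follows from that choice. Any part of cAMP in these falls was not tested.

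**Figure D4:**
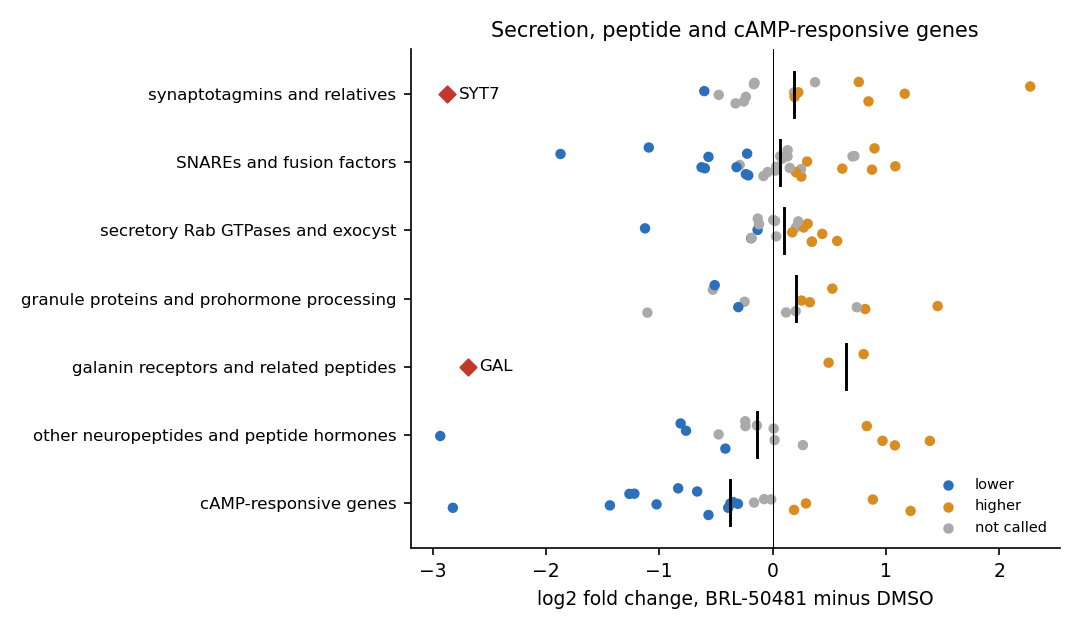
Log2 fold change of BRL-50481 over DMSO for each tested gene of 7 lists, with genes lower in blue, higher in orange and not called in grey, and black bars at the medians without SYT7 and GAL. SYT7 (−2.87) and GAL (−2.69) are red diamonds beside their own lists, whose medians are 0.19 and 0.65. The cAMP-responsive genes have the lowest median (−0.37).

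The genes on either side of SYT7 and GAL differed less between the groups than SYT7 and GAL did. This follows from the choice of SYT7 and GAL for their large falls, so nothing is read from it. Within 250 kb of the start of SYT7, 15 other genes were tested, of which 6 were lower, 3 were higher and 6 did not pass, with log2 fold changes between −0.95 and 0.88. Over all genes tested, 29.8% were lower and 28.9% were higher. The largest of those called were the falls of FEN1 (−0.93, standard error 0.0524), the flap endonuclease of DNA replication, and SDHAF2 (−0.72), an assembly factor of succinate dehydrogenase, and the rises of FADS2 (0.88, standard error 0.0597), a fatty acid desaturase, and TKFC (0.71). Exons of SDHAF2 and of PPP1R32 (−0.95, limma adjusted p = 0.0739) are shared with another annotated gene on the same strand, over 44.8% and 26.1% of their exon bases. PPP1R32, at 5.03 to 19.6 normalized counts, passed as lower without DMSO replicate 3 (−1.24, limma adjusted p = 0.035) or BRL-50481 replicate 3 (−1.23, limma adjusted p = 0.0452). DAGLA, the next protein-coding gene with a value on the higher-coordinate side of SYT7, starts 99.2 kb away and did not pass (0.13, standard error 0.0900, limma adjusted p = 0.227). MYRF, the following one, had a log2 fold change of 0.0042. The call of FADS1 (−0.12) was lost without any one of the BRL-50481 libraries or DMSO replicate 3 (−0.14 to −0.11), and that of CYB561A3 (0.27) was lost without BRL-50481 replicate 2 (0.23, limma adjusted p = 0.0619). TMEM216 passed without DMSO replicate 1 (−0.25, limma adjusted p = 0.0135), and DAGLA passed as higher without DMSO replicate 2 (0.22, limma adjusted p = 0.0345). Around GAL, 4 genes were tested and 3 were lower, too few to set against the 29.8% of all genes. CPT1A, the carnitine palmitoyltransferase of fatty acid import into mitochondria, starts 161 kb from GAL and fell from 5750 ± 282 to 2881 ± 83.8 normalized counts (−0.996, standard error 0.0523, limma adjusted p = 1.06e-08). MRPL21 (−0.56) and IGHMBP2 (−0.31) fell less, and PPP6R3 (−0.022) did not pass. After the correction for length and GC content, PPP6R3 (−0.14, limma adjusted p = 0.00224) and DDB1 (−0.13, limma adjusted p = 0.00114) were called lower. PPP1R32 was so with quantile normalization (−1.21, limma adjusted p = 0.0276). DDB1 (−0.059), CPSF7 (−0.35), TMEM138 (−0.58), TMEM258 (−0.33), TMEM216 (−0.14) and the pseudogene RPLP0P2 (−0.45) were the remaining neighbours of SYT7, of which CPSF7, TMEM138 and TMEM258 passed the threshold.

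**Figure D5:**
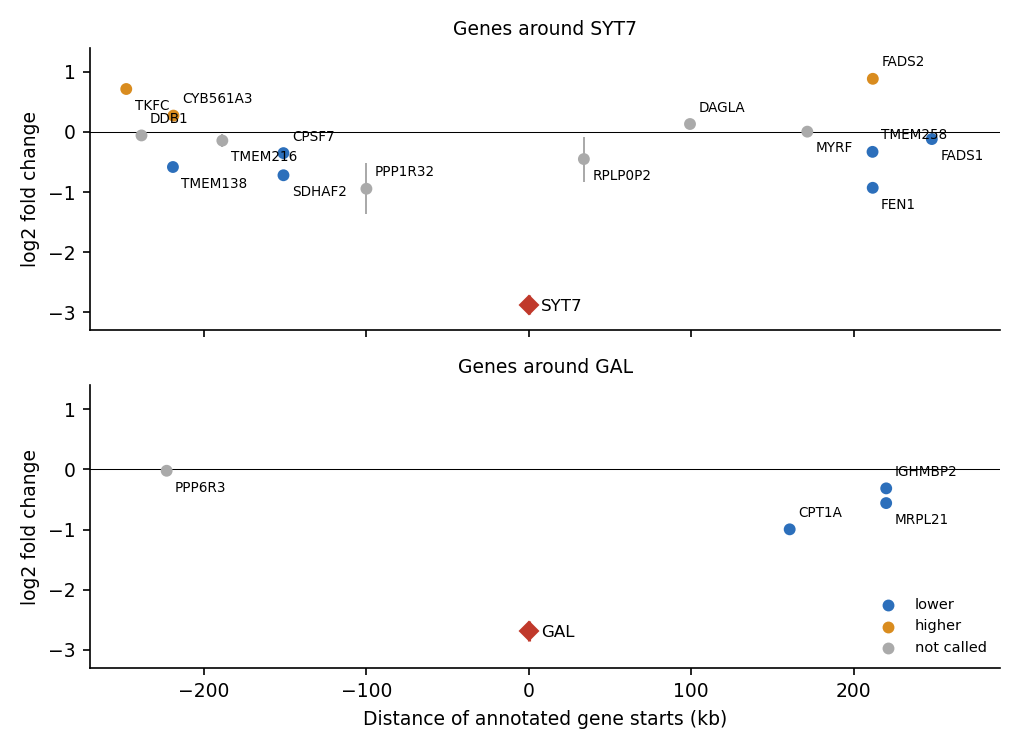
Log2 fold change of BRL-50481 over DMSO of the tested genes around SYT7 (top) and GAL (bottom) against the distance of their annotated starts in kb, positive toward higher coordinates. Points are blue where lower, orange where higher and grey where not called, bars are standard errors and red diamonds are SYT7 and GAL. All neighbours lie between −0.996 and 0.88, and the diamonds lie lower, since both genes were chosen for their large falls.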

How the data were processed

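Values came from 1 table that the authors deposited. The authors aligned single-end reads to hg38 with STAR 2.7.1a, assigned them to genes of the UCSC annotation with htseq-count set to the reverse strand, and normalized them with DESeq2 1.28. The signal deposited for each library is the gene's reads over a size factor, and a further deposited signal is the mean over libraries. The authors' own comparison was also deposited (log2 fold changes and standard errors, a Wald score and p-values) and was not used here. All 93906 values in the libraries' columns fell within 0.01 reads of a whole number, so reads were recovered by division.

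Log2(normalized count + 1) was compared with limma 3.58.1 in R 4.3.3 (eBayes with a trend, group as the only term) after 405 genes under 4 normalized counts in more than 3 libraries were left out. P-values were two-sided, adjusted over 15246 genes by the Benjamini-Hochberg method and called under 0.05. Alternatives were edgeR 4.0.16 (quasi-likelihood, TMM) and DESeq2 1.42.0 on recovered reads, pseudocounts of 0.5 and 4, other filters, quantile normalization, median centring, no trend, the replicate number as a block and each library left out. A loess correction (span 0.5) for transcript length and GC content was added after seeing the data. The steps were tested on simulated data. GENCODE release 44 gave lengths and positions, matched by current or older symbol for 96.7% of genes.

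SYT7, GAL and the gene lists were chosen with earlier results of these data known. Named genes are, for each list, the 3 tested genes with the highest mean and the 3 called genes with the largest change at a mean of at least 50, every synaptotagmin and galanin receptor tested, the genes next in rank of fall, the 5 most like each of the pair and those starting within 250 kb. Others are named with a remark. A gene that this rule names is not reported here.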

Additional observations from a re-analysis of the deposited data

How the results depend on the processing

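SYT7 and GAL were lower in every alternative. The log2 fold change of SYT7 ranged from −3.03 to −2.75 and that of GAL from −2.81 to −2.51, and the value of SYT7 with quantile normalization (−3.03) was the only one that moved by more than the spread between replicates. With each library left out in turn, it stayed between −2.95 and −2.80 for SYT7 and between −2.80 and −2.51 for GAL. Over all genes tested, the genes called lower numbered 4546, between 4027 and 5496 in the alternatives, and those called higher 4400, between 3751 and 4876. Counts of lower genes that moved by over 1.5 times were those of the synaptotagmins and relatives (4 with quantile normalization and 4 after the length and GC correction, against 1), of the granule proteins (4 with quantile normalization, against 2) and of the Rab GTPases and exocyst (1 with quantile normalization, 1 with median centring, 6 after the length and GC correction and 1 to 3 with each library left out, against 3). The cause was not tested.

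With the replicate number as a block, the log2 fold changes were −2.87 for SYT7 (standard error 0.158) and −2.69 for GAL (standard error 0.155), with 4589 genes lower and 4440 higher, and no count of a list moved by over 1.5 times. The deviations of same-numbered libraries correlated at 0.121, 0.104 and 0.0514, and 5 of 6 libraries correlated best with their own number, which is a hint from the data, so the libraries were treated as sharing only a number. Depth limits SYT7 in BRL-50481, where each library held 26 to 31 reads.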
